A study of Mus musculus with 2 samples.

Results

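The 9 genes described here are targets of the transcription factor p53 that act in programmed cell death: *Bax*, *Bbc3* and *Pmaip1*, which act at the mitochondrion, *Fas*, *Tnfrsf10b* and *Eda2r*, which encode receptors of the tumor necrosis factor receptor superfamily, and *Perp*, *Phlda3* and *Ei24*. They were chosen by name with earlier results of these data known, so that comparisons of them with all genes are descriptive. All 9 were found among the 16665 genes listed in at least 1 of the libraries. They passed the minimum of 200 unique molecular identifiers (UMIs) over both libraries, which 10002 genes passed. The values are single-cell counts of enteroids, which are organoids grown from the crypts of the small intestine. Ileal crypts came from 4-month-old mice of strain C57Bl6/129sv, and day 8 of culture was studied by 10X Genomics 3′ single-cell RNA-seq of live-sorted cells. There was 1 library per group. The library labelled Taf4IEC came from Taf4lox/lox::VilCreERT2 enteroids treated for 3 days with 1 µM 4-hydroxytamoxifen (4-OHT), which activates the Cre recombinase that the villin promoter drives in epithelial cells so that the floxed *Taf4* alleles recombine. The control came, by the methods of the study, from Taf4lox/lox enteroids without Cre that also received 4-OHT, whereas its label names wild-type organoids given ethanol. Genotype, Cre activity, drug exposure and library can therefore not be told apart, and no test between groups was possible. All intervals are 95% intervals, cover counting error only and say nothing about the spread between cultures.

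p53 is stabilized by DNA damage and other stresses and induces genes of cell cycle arrest and of apoptosis. In the intrinsic pathway Bax oligomerizes in the outer mitochondrial membrane and lets cytochrome c out, and the BH3-only proteins Puma (encoded by *Bbc3*) and Noxa (encoded by *Pmaip1*) neutralize the prosurvival members of the Bcl2 family. In the extrinsic pathway Fas and the TRAIL receptor (encoded by *Tnfrsf10b*) recruit the adaptor Fadd and caspase 8 once their ligand has bound. In the intestine p53-dependent death of crypt cells, in particular through Puma, is a known response to irradiation.

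The control held 39947009 UMIs in 2563 cells and the library labelled Taf4IEC 24990128 UMIs in 1811 cells. They differed in depth, with medians of 16749 and 2254 UMIs per cell and 17.3% and 49.1% of cells under 2000 UMIs, and they shared 2 cell barcodes. *Taf4* itself, on chromosome 2, gave 278 UMIs in the control and 236 in the library labelled Taf4IEC, which is 0.0696 and 0.0944 UMIs per 10000 and a log2 ratio of 0.44 (0.18 to 0.70). The targeted gene was thus not lower. Counts of transcript 3′ ends cannot tell a recombined from an intact allele, so the label was not checked by them. The cells were clustered in each library without the 9 genes and without the pathway genes below, and a cluster received a name with "-like" when at least 3 markers of a class were raised in it. In the control and the library labelled Taf4IEC, 1052 and 428 cells were stem-like, 232 and 168 enterocyte-like, 187 and 193 Paneth/goblet-like, 259 and 200 enteroendocrine-like, and 742 and 807 unnamed. A tuft-like class of 91 and 15 cells was not compared, since the 15 cells were few and the clusters under this name were unlike. Summed tuft markers stood at 0.914 and 23.5 UMIs per 10000 in them, and stem markers at 16.2 and 5.24. Of 10 markers of blood, stromal and endothelial cells, *Ptprc*, *Col3a1* and *Acta2* were at 0 UMIs in both libraries, and *Vim* was the highest with 144 and 174 UMIs.

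The promoter windows of these genes, 250 bases before to 50 bases after each annotated start (RefSeq, GRCm38.p6, which is mm10), were searched for the p53 decamer motif, the 10-base element of which 2 copies make a full p53 binding site. The motif reads the same on both strands. Windows were at hand for 6 of the 9 genes (3 for *Bbc3*), and not for *Pmaip1*, *Tnfrsf10b* and *Perp*. A decamer was found in those of *Bax* and *Ei24* and in none of those of *Bbc3*, *Fas*, *Eda2r* and *Phlda3*, while 8.36% of all 32851 windows of this length held at least 1. A match is a run of letters and not a measured binding site. A window without one does not show that the gene lacks a site, since sequence outside these windows was not searched. The 4 windows below, written 5′ to 3′ on the strand of the gene, are shown because they hold the matches (*Bax* and *Ei24*, with the decamer in capitals) or belong to the genes with the highest ratios (*Eda2r* and *Fas*, with none).
*Bax*, chr7:45466849-45467148, minus strand: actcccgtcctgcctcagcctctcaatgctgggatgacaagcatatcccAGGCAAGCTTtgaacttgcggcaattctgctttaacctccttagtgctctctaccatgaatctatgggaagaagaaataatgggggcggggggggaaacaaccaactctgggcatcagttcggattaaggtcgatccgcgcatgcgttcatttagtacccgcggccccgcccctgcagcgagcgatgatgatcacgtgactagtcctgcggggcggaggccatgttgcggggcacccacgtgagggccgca
*Ei24*, chr9:36797285-36797584, minus strand: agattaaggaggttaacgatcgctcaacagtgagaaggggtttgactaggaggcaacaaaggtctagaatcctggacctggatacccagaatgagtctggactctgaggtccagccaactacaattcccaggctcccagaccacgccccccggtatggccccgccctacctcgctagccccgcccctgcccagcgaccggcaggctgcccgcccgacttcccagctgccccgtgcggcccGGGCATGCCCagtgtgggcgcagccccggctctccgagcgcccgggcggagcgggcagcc
*Eda2r*, chrX:97377160-97377459, minus strand: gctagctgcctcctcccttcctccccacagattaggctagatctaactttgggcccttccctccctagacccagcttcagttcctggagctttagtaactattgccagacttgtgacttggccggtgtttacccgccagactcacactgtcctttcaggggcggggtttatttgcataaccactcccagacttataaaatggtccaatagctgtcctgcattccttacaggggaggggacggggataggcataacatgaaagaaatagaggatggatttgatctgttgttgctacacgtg
*Fas*, chr19:34290409-34290708, plus strand: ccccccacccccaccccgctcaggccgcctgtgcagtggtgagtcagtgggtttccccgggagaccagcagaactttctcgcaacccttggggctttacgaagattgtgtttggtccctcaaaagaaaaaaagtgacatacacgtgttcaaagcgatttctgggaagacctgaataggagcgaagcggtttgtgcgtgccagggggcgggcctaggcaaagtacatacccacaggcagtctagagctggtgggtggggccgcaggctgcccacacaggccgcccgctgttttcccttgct
The first base of the decamer stood at position -201 from the start in *Bax* and at -10 in *Ei24*. A full site with at most 2 mismatches and up to 13 bases between the decamers was present in 4.09% of all windows and, among the members, in that of *Bax*.

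Over all cells, each of the 9 genes was higher in the library labelled Taf4IEC than in the control, and the interval of the ratio lay above 0 for 9 of 9, as it did for 49.1% of all genes. At least 2-fold higher were 5 of the 9, *Eda2r*, *Fas*, *Tnfrsf10b*, *Phlda3* and *Bbc3*, against 5.52% of the 10002 genes tested. None was 2-fold lower, against 3.48%. The median log2 ratio of the 9 genes was 1.16, and that of all genes was 0.16. These values describe 2 libraries, and a higher share of cells that express a gene cannot be told apart in them from more RNA per cell.

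Of the mitochondrial group, *Bax* (chr7:45461695-45466903) stood at 1.71 UMIs per 10000 (6823 UMIs) in the control and at 3.39 (8482 UMIs) in the library labelled Taf4IEC, a log2 ratio of 0.99 (0.94 to 1.04) that ended just under the 2-fold line. *Bbc3* (chr7:16308398-16318334) stood at 0.0809 (323 UMIs) and 0.180 (450 UMIs), a log2 ratio of 1.16 (0.95 to 1.37). *Pmaip1* (chr18:66458604-66465558) stood at 0.166 (664 UMIs) and 0.204 (511 UMIs), the smallest difference of the 9 with a log2 ratio of 0.30 (0.13 to 0.47). The ratios of these 3 genes of the intrinsic pathway thus differed in size, and that of *Pmaip1* ranked 3651 among all genes tested.

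The receptor genes had few UMIs and large ratios. *Eda2r* (chrX:97333837-97377234), which encodes the receptor of the A2 form of ectodysplasin, stood at 0.0143 UMIs per 10000 in the control (57 UMIs) and 0.121 in the library labelled Taf4IEC (302 UMIs). Its log2 ratio of 3.08 (2.67 to 3.52) ranked 20 among the 10002 genes. *Fas* (chr19:34290647-34327775) stood at 0.0235 (94 UMIs) and 0.107 (268 UMIs), a log2 ratio of 2.19 (1.84 to 2.54). *Tnfrsf10b* (chr14:69767472-69784411) stood at 0.0436 (174 UMIs) and 0.130 (326 UMIs), a log2 ratio of 1.58 (1.31 to 1.86). The *Eda2r* locus overlaps the pseudogene Gm18111, and whether the counting used strand is not given in the sources used here.

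Of the other targets, *Phlda3* (chr1:135766085-135769134), whose product restrains Akt signaling, stood at 0.306 UMIs per 10000 (1224 UMIs) and 0.803 (2007 UMIs), a log2 ratio of 1.39 (1.29 to 1.49). *Perp* (chr10:18845071-18857073), which encodes a membrane protein of desmosomes, stood at 0.764 (3052 UMIs) and 1.38 (3448 UMIs), a log2 ratio of 0.85 (0.78 to 0.92). *Ei24* (chr9:36779153-36797334), which encodes a protein of the endoplasmic reticulum and overlaps the lncRNA gene Gm26787, stood at 0.561 (2243 UMIs) and 1.10 (2737 UMIs), a log2 ratio of 0.96 (0.88 to 1.05).

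**Figure D1:**
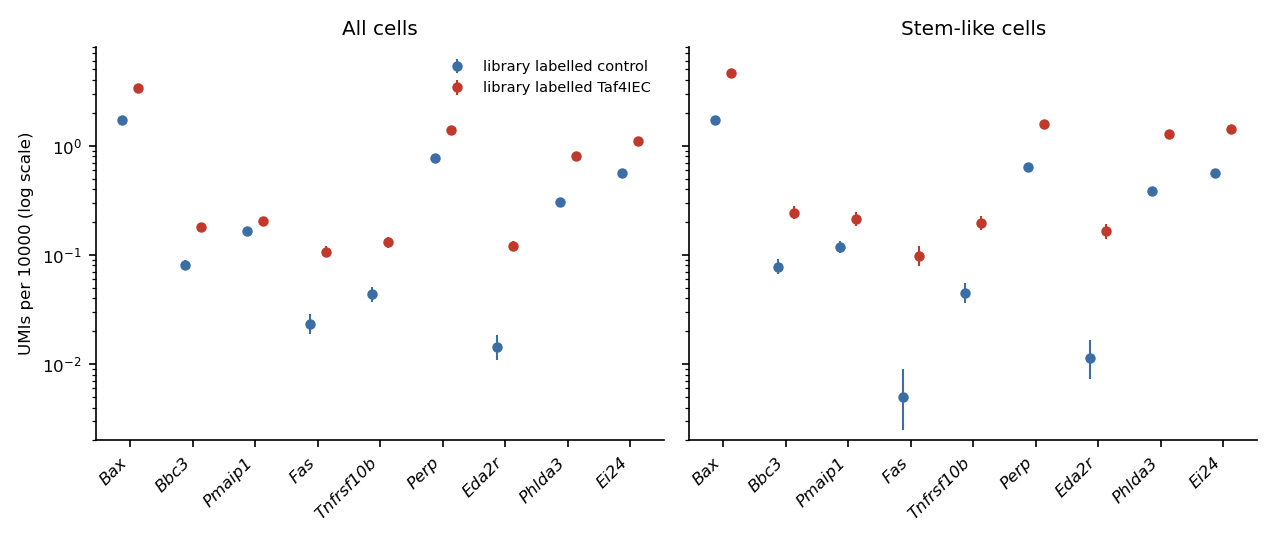
Level of each gene in UMIs per 10000 (log scale) in the control (blue) and in the library labelled Taf4IEC (red), over all cells on the left and over stem-like cells on the right, with bars for exact Poisson 95% intervals. The red point is above the blue one for every gene in both panels, and the smallest gap over all cells is that of Pmaip1 (0.166 and 0.204).

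**Figure D2:**
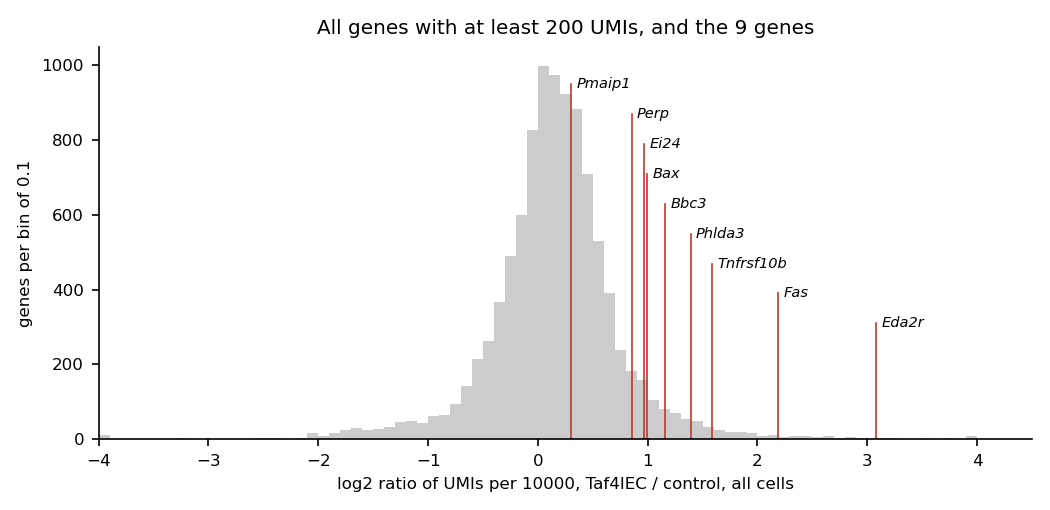
Number of genes per bin of 0.1 of the log2 ratio over all cells for the 10002 genes with at least 200 UMIs (gray), with red lines at the 9 genes, whose heights only separate the names. The first and the last bin also hold all ratios beyond them. All genes have a median of 0.16, and the 9 genes range from 0.30 for Pmaip1 to 3.08 for Eda2r.

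The composition of the libraries differed beside these ratios. Summed Paneth/goblet markers stood at 64.1 UMIs per 10000 in the control and 213 in the library labelled Taf4IEC, enterocyte markers at 24.9 and 58.5, stem markers at 16.4 and 10.2, and proliferation markers at 4.53 and 1.68. The nuclear RNA *Malat1* stood at 44.2 and 74.0 UMIs per 10000 over all cells and at 31.8 and 48.9 in stem-like cells, and the ribosomal RNA locus Gm42418 at 24.7 and 41.8 over all cells, and their part in the ratios was not tested. With each class of the library labelled Taf4IEC weighted by its share of UMIs in the control, a setting chosen after the data were seen, the median log2 ratio of the 9 genes was 1.30, against 0.18 for all genes, and 7 of 9 were at least 2-fold higher, against 4.05% of all genes.

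In stem-like cells the differences were larger. At least 2-fold higher in the library labelled Taf4IEC were 8 of the 9 genes, against 5.84% of all genes, and *Pmaip1* was the exception, with a log2 ratio of 0.85 (0.57 to 1.12). All 9 intervals lay above 0, as for 43.8% of all genes, and the median log2 ratio was 1.64 for the 9 genes and 0.19 for all genes. *Bax* stood at 1.71 UMIs per 10000 (3753 UMIs) in control stem-like cells and at 4.62 (4224 UMIs) in those labelled Taf4IEC, a log2 ratio of 1.44 (1.37 to 1.501). *Bbc3* stood at 0.0782 (172 UMIs) and 0.244 (223 UMIs), a log2 ratio of 1.64 (1.35 to 1.94). Both levels were the highest among the classes of the library labelled Taf4IEC, for *Bax* beyond the intervals of all others, whereas for *Bbc3* each class overlapped its neighbor in the order.

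The receptors showed the largest ratios of stem-like cells. *Fas* gave 11 UMIs in 1052 control stem-like cells and 90 UMIs in 428 stem-like cells labelled Taf4IEC, which is 0.00500 and 0.0985 UMIs per 10000 and a log2 ratio of 4.30 (3.39 to 5.35). *Eda2r* gave 25 and 150 UMIs, 0.0114 and 0.164 per 10000, a log2 ratio of 3.85 (3.23 to 4.52). *Tnfrsf10b* gave 99 and 178 UMIs, 0.0450 and 0.195 per 10000, a log2 ratio of 2.11 (1.75 to 2.48). The log2 ratio was 1.73 (1.61 to 1.86) for *Phlda3*, 1.32 (1.21 to 1.43) for *Ei24* and 1.29 (1.18 to 1.39) for *Perp*.

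Stem markers summed to 23.2 UMIs per 10000 in control stem-like cells and 21.5 in those labelled Taf4IEC, while proliferation markers stood at 7.27 and 3.38 and Paneth/goblet markers at 10.6 and 26.8. Different clusters made up the class. The largest stem-like cluster labelled Taf4IEC (183 cells) was led by genes such as *Ddit4l*, *Anxa1*, *Myc* and *Ccnd1*, and no stem marker stood among its 10 leading genes, whereas the largest in the control (321 cells) was led by histone and replication genes. Another stem-like cluster labelled Taf4IEC (174 cells) was shallow (median 1758 UMIs in a cell). In stem-like cells of at least 2000 UMIs, 8 of the 9 genes were likewise at least 2-fold higher (median log2 ratio 1.62), against 5.82% of all genes.

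To set cells of a like phase side by side, the stem-like cluster with the highest level of the mitotic genes *Ccnb1* and *Cdc20* was taken in each library, a choice made after the clusters had been seen. These were 214 control and 71 Taf4IEC cells, with proliferation markers at 14.0 and 8.76 UMIs per 10000. In them 7 of the 9 genes were at least 2-fold higher in the library labelled Taf4IEC, against 10.1% of all genes. *Bax* stood at 1.69 and 4.02 UMIs per 10000 (log2 ratio 1.25, 1.11 to 1.39) and *Eda2r* at 0.00659 and 0.155 (3 and 37 UMIs, log2 ratio 4.56, 2.90 to 6.90). *Perp*, at 0.725 and 1.21, had a log2 ratio of 0.74 (0.51 to 0.97), and *Pmaip1*, at 0.163 and 0.218, one of 0.43 (-0.11 to 0.96), the only interval of the 9 that held 0.

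**Figure D3:**
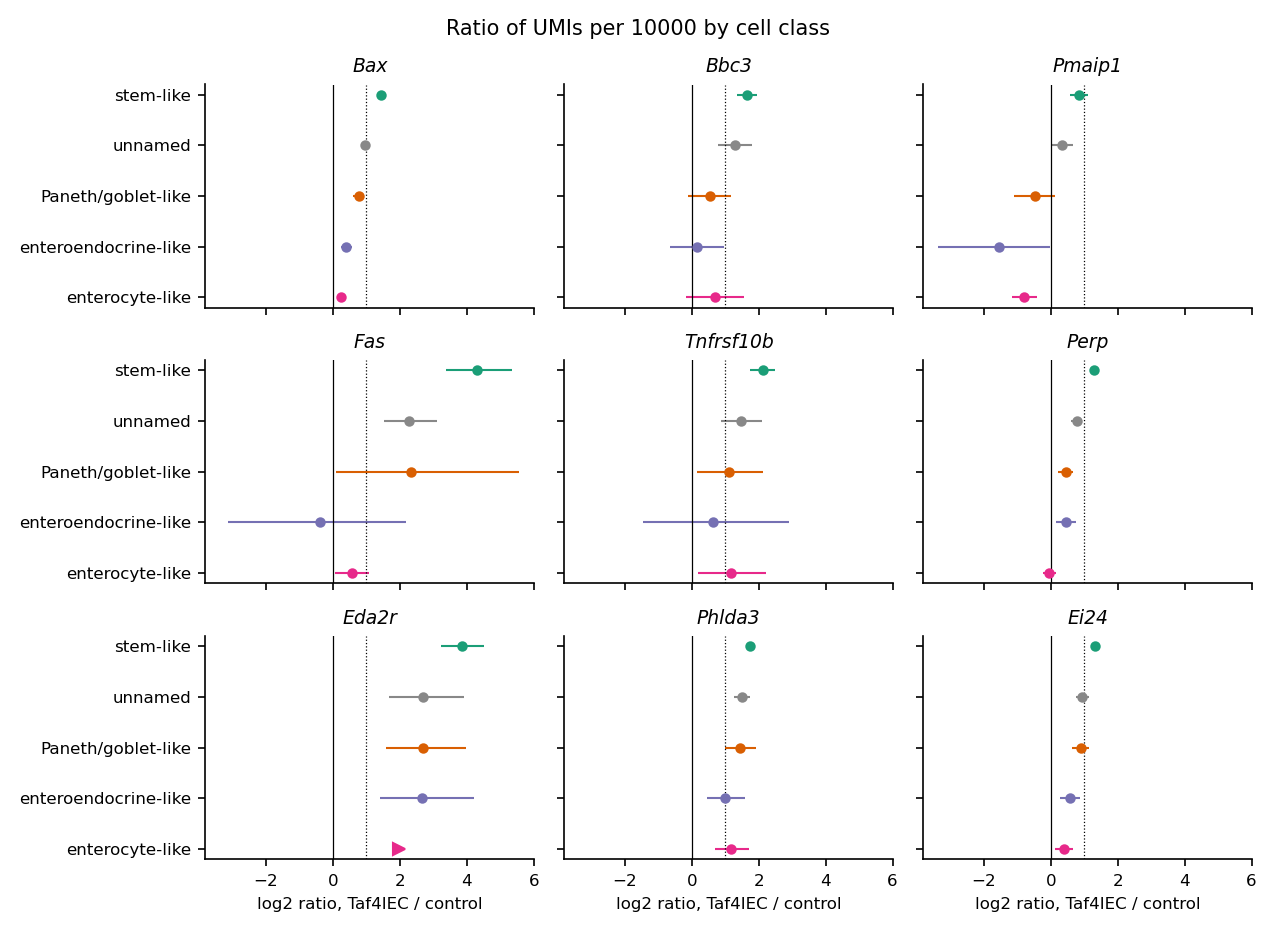
The log2 ratio of UMIs per 10000, library labelled Taf4IEC over control, of each gene in 5 cell classes, with exact 95% intervals (counting error only), a solid line at 0 and a dotted line at 2-fold. The triangle is a lower bound, since Eda2r had 0 UMIs in control enterocyte-like cells. The stem-like point lies to the right of the other classes in each panel, and Pmaip1 lies left of 0 in enterocyte-like (-0.78), enteroendocrine-like (-1.54) and Paneth/goblet-like cells (-0.47, interval holding 0).

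Differentiated classes differed from stem-like cells. Among enterocyte-like cells, the absorptive class, *Bax* stood at 1.68 UMIs per 10000 in the control (745 UMIs) and 2.00 in the library labelled Taf4IEC (913 UMIs), a log2 ratio of 0.26 (0.11 to 0.40). *Perp* gave 476 UMIs in each, a log2 ratio of -0.04 (-0.22 to 0.15). *Phlda3*, at 0.110 and 0.250, had a log2 ratio of 1.18 (0.69 to 1.70), and *Tnfrsf10b*, at 13 and 30 UMIs, one of 1.17 (0.19 to 2.23). *Eda2r* gave 0 UMIs in the control class and 12 in that labelled Taf4IEC. With the control set at 3 UMIs over the class it was 3.90-fold higher, and the exact interval of the log2 ratio began at 1.44. With *Eda2r* at this set value, 3 of the 9 genes were at least 2-fold higher, against 5.12% of all genes. The median log2 ratio of the 9 genes was 0.57, against 0.01.

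*Fas* had its own distribution over the classes. In the control its level was highest in enterocyte-like cells, at 0.128 UMIs per 10000 (57 of the 94 UMIs of the library), and the 4 other classes, from 0.00500 in stem-like to 0.0291 in unnamed cells, lay below with intervals that did not reach it. In the library labelled Taf4IEC enterocyte-like cells stood at 0.191 (87 UMIs), unnamed cells at 0.142 and stem-like cells at 0.0985, and neighbors in this order overlapped. The log2 ratio was 0.57 (0.07 to 1.08) in enterocyte-like cells and 4.30 in stem-like cells, a difference of 3.73 (2.69 to 4.89). Stem-like cells labelled Taf4IEC reached 51.6% of the *Fas* level of their enterocyte-like cells and 2.93% of the level of enterocyte markers. The control stem-like cells reached 3.90% and 3.15%. The part of free RNA or of mixed clusters in these levels was not tested. Enteroendocrine-like cells gave 4 and 3 UMIs of *Fas*, which allowed no direction (log2 ratio -0.37, -3.14 to 2.19). Among stem-like cells of at least 2000 UMIs, before any thinning, at least 1 UMI of *Fas* was found in 1.05% of 1044 control cells and in 18.9% of 322 cells labelled Taf4IEC, at median depths of 21062.5 and 32770.5 UMIs. In enteroendocrine-like cells of that depth these shares were 1.43% of 210 and 2.14% of 140 cells, at medians of 11653.5 and 17757.5 UMIs. After thinning to 5000 UMIs the shares of stem-like cells were 0.388% (4 of 1032) and 4.46% (12 of 269).

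*Pmaip1* differed in direction between classes. Its control level was highest in enterocyte-like cells (0.374 UMIs per 10000, 166 UMIs) and stood there at 0.217 (99 UMIs) in the library labelled Taf4IEC, a log2 ratio of -0.78 (-1.16 to -0.42). In enteroendocrine-like cells it stood at 0.0588 (15 UMIs) and 0.0202 (5 UMIs), a log2 ratio of -1.54 (-3.36 to -0.01), and in enteroendocrine-like cells of at least 2000 UMIs the interval held 0. Paneth/goblet-like cells gave 56 and 40 UMIs, a log2 ratio of -0.47 (-1.10 to 0.14). Stem-like cells, with 259 and 194 UMIs and levels of 0.118 and 0.212, went the other way. The ratio of stem-like cells exceeded that of enterocyte-like cells by 1.63 (1.17 to 2.10) on the log2 scale. The levels of *Pmaip1* lay closer together in the library labelled Taf4IEC among enterocyte-like, stem-like and unnamed cells, at 0.217, 0.212 and 0.309, than in the control, at 0.374, 0.118 and 0.242.

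In Paneth/goblet-like cells, the secretory class of the crypt base and of mucus, 4 of the 9 genes were at least 2-fold higher, against 5.26% of all genes. They were *Eda2r* (8 and 51 UMIs, log2 ratio 2.69, 1.60 to 3.97), *Fas* (2 and 10 UMIs, log2 ratio 2.34, 0.11 to 5.57), *Phlda3* (55 and 149 UMIs, log2 ratio 1.45, 1.00 to 1.92) and *Tnfrsf10b* (14 and 30 UMIs, log2 ratio 1.11, 0.15 to 2.14). *Bax* stood at 1.55 and 2.63 UMIs per 10000, a log2 ratio of 0.77 (0.60 to 0.93). The clusters behind this class differed, since 106 of the 193 cells labelled Taf4IEC were a shallow cluster led by defensins, and 87 were led by mucus genes.

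In enteroendocrine-like cells, the hormone-producing class, 2 of the 9 genes were at least 2-fold higher, against 6.95% of all genes, and 1 was 2-fold lower, against 4.31%. *Eda2r* gave 6 and 37 UMIs, a log2 ratio of 2.67 (1.41 to 4.20), and *Phlda3* 41 and 80 UMIs, a log2 ratio of 1.01 (0.45 to 1.59). *Bax* was already highest in this class in the control, at 2.24 UMIs per 10000, and stood at 2.95 in the library labelled Taf4IEC, a log2 ratio of 0.40 (0.24 to 0.56).

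The unnamed cells labelled Taf4IEC included a cluster of 57 cells led by *Ly6d*, *Areg*, *Cldn2* and the p53 target *Gdf15*, at a median of 3391 UMIs per cell. Its levels of *Bax* (5.87 UMIs per 10000, 5.10 to 6.72), *Perp* (2.65, 2.15 to 3.25) and *Phlda3* (1.79, 1.38 to 2.28) rest on few UMIs (210, 95 and 64). They lay above those of the 183-cell stem-like cluster, at 4.91 (4.73 to 5.08), 1.73 (1.63 to 1.84) and 1.33 (1.24 to 1.42). The intervals of *Phlda3* overlapped and those of *Bax* nearly met. Levels of the other members in this cluster are not given here. Over all unnamed cells 5 of the 9 genes were at least 2-fold higher, against 8.31% of all genes, and their median log2 ratio was 1.29, against 0.10.

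The difference between the log2 ratio of stem-like cells and that of each other class was computed for every member with UMIs in both groups. Against enterocyte-like cells its interval lay above 0 for 7 of 8 genes, as for 23.6% of all genes, with *Tnfrsf10b* as the exception (0.94, -0.18 to 1.99). Against enteroendocrine-like cells it did so for 7 of 9 genes, as for 10.2% of all genes, against Paneth/goblet-like cells for 5 of 9, as for 17.5%, and against unnamed cells for 5 of 9, as for 20.6%. The difference of *Bax* was 1.18 (1.03 to 1.34) against enterocyte-like, 1.04 (0.87 to 1.21) against enteroendocrine-like, 0.67 (0.49 to 0.84) against Paneth/goblet-like and 0.49 (0.36 to 0.62) against unnamed cells. For *Eda2r* the difference from Paneth/goblet-like cells was 1.17 (-0.26 to 2.44) and from enteroendocrine-like cells 1.19 (-0.47 to 2.61), so that a larger ratio in stem-like cells was not detectable at this depth.

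The order of the classes changed with the group for *Bax*. Its control levels lay within a narrow band, from 1.55 UMIs per 10000 in Paneth/goblet-like to 2.24 in enteroendocrine-like cells, and only the step from enteroendocrine-like to stem-like cells (1.71) exceeded the intervals of neighbors. In the library labelled Taf4IEC stem-like cells came first at 4.62 and enterocyte-like cells last at 2.00, both beyond the intervals of their neighbors. *Phlda3* kept 1 order in both groups, from stem-like (0.386 and 1.28) through unnamed, Paneth/goblet-like and enteroendocrine-like to enterocyte-like cells (0.110 and 0.250), where the step from enteroendocrine-like to enterocyte-like cells did not exceed the intervals in either group, nor that from Paneth/goblet-like to enteroendocrine-like cells in the control. *Ei24* ranged from 0.459 to 0.652 in the control and from 0.599 in enterocyte-like to 1.42 in stem-like cells of the library labelled Taf4IEC.

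**Figure D4:**
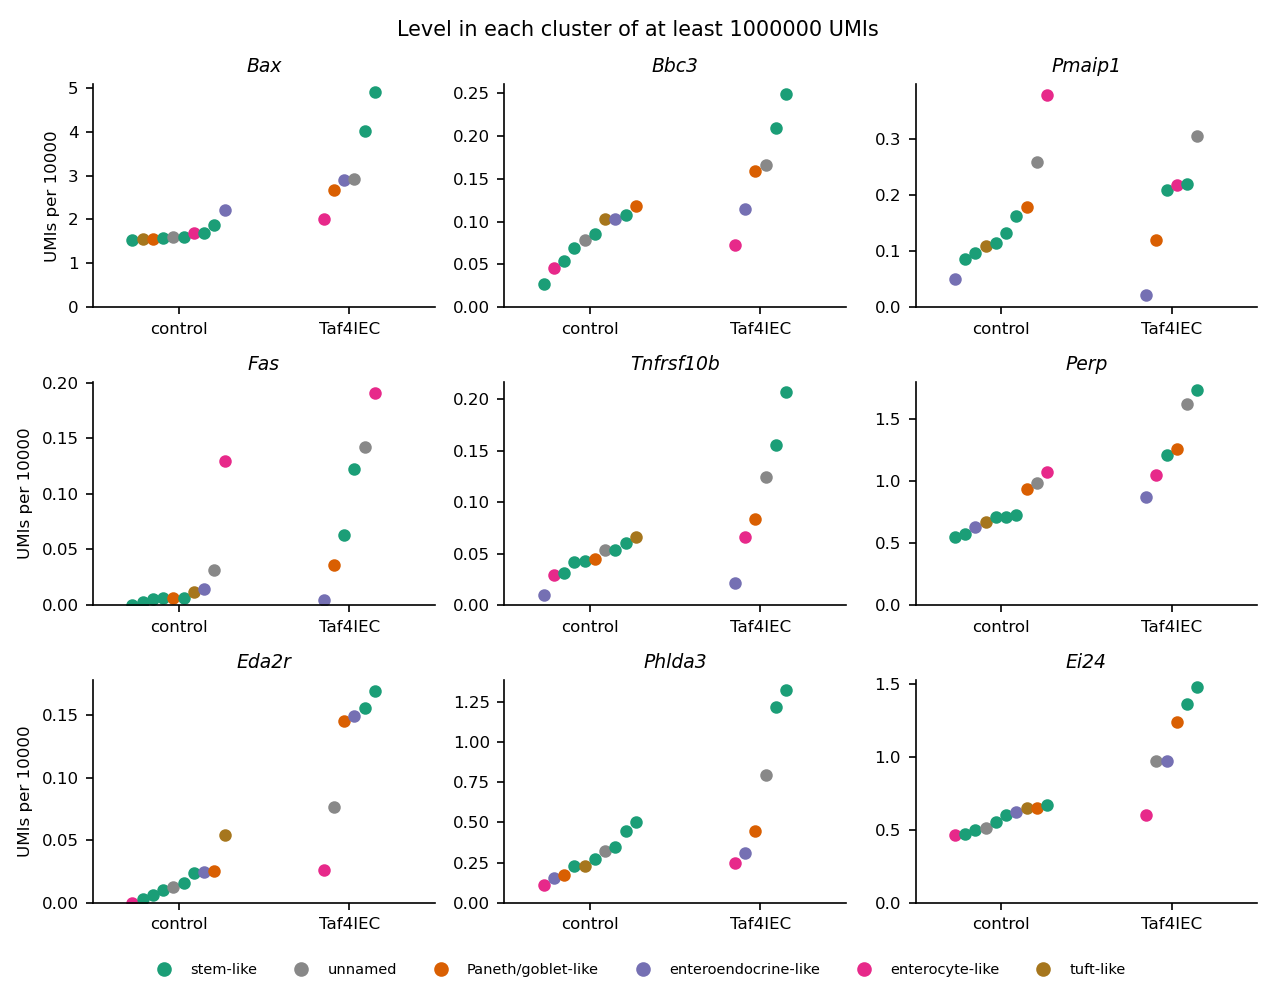
UMIs per 10000 of each gene in every cluster of at least 1000000 UMIs (10 control and 6 Taf4IEC clusters), each a point colored by the class of the cluster and ordered by level within its group. For Bax 5 of the 6 Taf4IEC points lie above all control points, the highest of which is 2.21, and the sixth, enterocyte-like, is at 2.00.

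At the level of clusters of at least 1000000 UMIs, no gene of the 9 separated the groups fully, since every one had at least 1 Taf4IEC cluster within the control range, while 0.59% of all genes had every Taf4IEC cluster above every control cluster. Of the 6 clusters labelled Taf4IEC, 5 lay above all 10 control clusters for *Bax*, *Eda2r* and *Ei24*, 4 for *Bbc3*, *Tnfrsf10b* and *Perp*, 3 for *Phlda3*, 2 for *Fas* and 0 for *Pmaip1*. The Taf4IEC cluster with the lowest level was the enterocyte-like one for *Bax*, *Bbc3*, *Eda2r*, *Phlda3* and *Ei24*, and the enteroendocrine-like one of 128 cells for *Pmaip1*, *Fas*, *Tnfrsf10b* and *Perp*. Among these 6 clusters the 183-cell stem-like one was the highest for 7 of the 9 genes. *Fas* was highest in the enterocyte-like cluster (0.191) and *Pmaip1* in the unnamed cluster of 148 cells (0.304). Such counts of clusters were not made for all genes, so they describe the 9 genes only. Clusters of 1 library are not replicates of its condition.

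The number of the 9 genes with a UMI was also counted in single cells. Each cell was thinned to 5000 UMIs, which left 1988 control cells (575 left out) and 758 cells labelled Taf4IEC (1053 left out). At least 3 of the 9 genes had a UMI in 12.0% of control cells (10.6 to 13.5) and in 40.5% of cells labelled Taf4IEC (37.0 to 44.1). In stem-like cells these shares were 12.2% (126 of 1032) and 55.4% (149 of 269), and cells without a UMI of any of the 9 genes made up 21.3% and 4.46%. In enterocyte-like cells the shares with at least 3 genes were 13.1% (26 of 198) and 19.1% (21 of 110), with overlapping intervals. Without the tuft-like cells (7.95% of 88 in the control), the control classes ranged from 11.1% in unnamed to 13.1% in enterocyte-like cells, and those labelled Taf4IEC from 19.1% to 55.4%. A UMI can stem from free RNA in the droplet, and its part in these shares was not tested. After the same thinning, *Bax* had a UMI in 85.5% of stem-like cells labelled Taf4IEC, *Ei24* in 48.7%, *Perp* in 48.0% and *Phlda3* in 41.6%. The other genes ranged from 4.46% for *Fas* to 12.3% for *Pmaip1*. Whether the genes occurred together more often than their separate rates give was not tested.

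**Figure D5:**
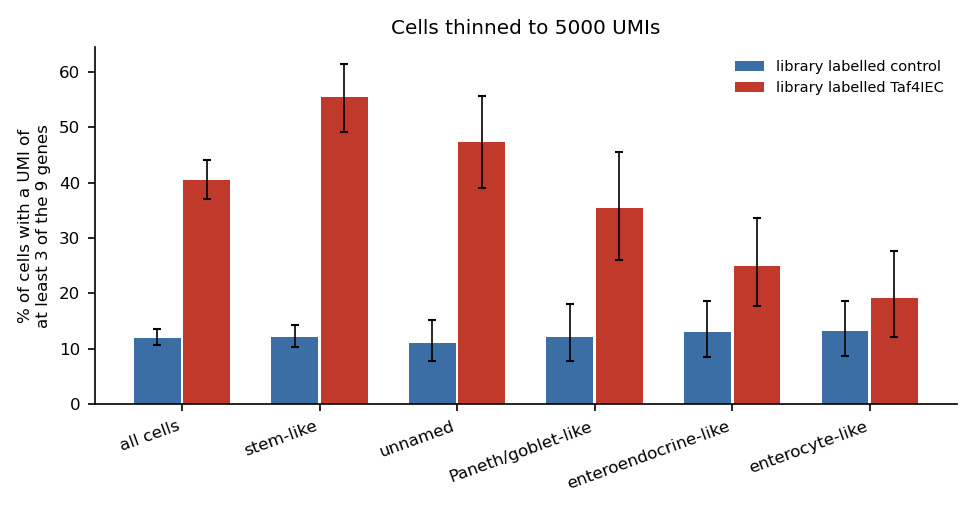
Share of cells, thinned to 5000 UMIs, in which at least 3 of the 9 genes had a UMI, over all cells and by class (tuft-like cells not shown), for the control (blue) and the library labelled Taf4IEC (red), with exact Clopper-Pearson 95% intervals. The control bars lie between 11.1% and 13.1%, and the red bars range from 19.1% in enterocyte-like to 55.4% in stem-like cells.

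Across the 25 clusters of at least 100000 UMIs in both libraries, the genes whose levels followed those of the members most closely were named by Pearson correlation of log2(UMIs per 10000 + 0.1), as a description only, since the clusters share libraries and depth. For *Bbc3* they were *Ptp4a3* (r = 0.90) and the p53 targets *Zmat3* (r = 0.88) and *Mdm2* (r = 0.86), for *Tnfrsf10b* the member *Phlda3* (r = 0.90), and for *Bax* the lamin gene *Lmna* (r = 0.92). For *Ei24* they were *Bscl2* (r = 0.88), *Rpl29* (r = 0.87) and *Bax* (r = 0.83). *Pmaip1* was closest to *Car13* (r = 0.84), *Tgfbr2* (r = 0.84) and *Net1* (r = 0.82), and its r with *Bax* was 0.18. These values hold the difference between the libraries. Of the 36 pairs of members, 21 had an r below 0 within the 12 control clusters and 1 within the 13 labelled Taf4IEC. No such count was made for pairs of other genes. In the 10 control clusters of at least 1000000 UMIs, *Eda2r* reached at most 0.0545 and *Tnfrsf10b* 0.0666 UMIs per 10000, below the added 0.1. The median of *Fas* there was 0.00649 and its highest level 0.130. The part of counting error and of the added 0.1 in these r was not tested. The r of *Tnfrsf10b* with *Phlda3* was 0.48 in the control clusters and 0.90 in those labelled Taf4IEC. The nearest genes changed as well, for *Bbc3* to *Selenom* in the control and *Rpl36* in the library labelled Taf4IEC.

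Other p53 targets were also higher in part. Of 25 listed genes 24 had enough UMIs, and 10 were at least 2-fold higher in the library labelled Taf4IEC and 0 at least 2-fold lower, against 5.52% and 3.48% of all genes, with a median log2 ratio of 0.75. *Cdkn1a*, the cell cycle inhibitor p21, stood at 1.94 and 6.17 UMIs per 10000. Its log2 ratio was 1.67 (1.63 to 1.71) over all cells and 2.65 (2.56 to 2.73) in stem-like cells. *Mdm2*, which encodes the ubiquitin ligase of p53, had a log2 ratio of 1.10 (0.98 to 1.23), and 1.57 (1.38 to 1.75) in stem-like cells. *Ddit4l* had the highest ratio of the list at 2.88 (39 and 180 UMIs). *Trp53*, the gene of p53 itself, had the lowest, with 0.813 and 0.558 UMIs per 10000 and a log2 ratio of -0.54 (-0.63 to -0.45), and one of -0.13 (-0.24 to -0.02) in stem-like cells. In stem-like cells 13 of the 24 were at least 2-fold higher and 0 lower, against 5.84% and 3.72% of all genes, with a median of 1.04 and *Trp53inp1*, which encodes a stress-induced partner of p53, as the highest at 3.63 (3.30 to 3.97).

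The remaining lists of the death pathways had smaller median log2 ratios than the 9 genes, although *Tnfsf10* and *Birc5* were more than 2-fold lower. Among other members of the Bcl2 family, 9 of 13 had enough UMIs, and 0 were 2-fold higher or lower in either all cells or stem-like cells, against 5.52% and 3.48% of all genes over all cells and 5.84% and 3.72% in stem-like cells. In both, 8 of the 9 intervals lay above 0, as for 49.1% and 43.8% of all genes, with median log2 ratios of 0.48 and 0.62. The prosurvival genes *Bcl2*, *Bcl2l1* and *Mcl1* had log2 ratios of 0.17 (-0.0014 to 0.34), 0.51 (0.29 to 0.72) and 0.43 (0.34 to 0.52) over all cells. The pore-forming relatives of Bax, *Bak1* and *Bok*, had 0.48 (0.35 to 0.61) and 0.85 (0.64 to 1.07), the latter the highest of the list.

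Of the ligands, adaptors and other receptors of the death receptor pathway, 9 of 12 had enough UMIs, with a median of 0.20 against 0.16. Of these, 0 were 2-fold higher and 1 was 2-fold lower, against 5.52% and 3.48% of all genes, and 1 gene is too few for a contrast. The lower one was *Tnfsf10*, the gene of TRAIL, the ligand of the receptor encoded by *Tnfrsf10b*. It gave 353 UMIs in the control and 58 in the library labelled Taf4IEC, 0.0884 and 0.0232 per 10000, a log2 ratio of -1.93 (-2.36 to -1.52), and 281 and 29 UMIs in stem-like cells, a log2 ratio of -2.01 (-2.61 to -1.46). Ligand and receptor transcripts thus lay on opposite sides of the control. *Eda*, whose product has a form that binds the receptor encoded by *Eda2r*, gave 12 and 4 UMIs, and *Fasl* was not analysed here. *Casp8*, the initiator caspase of these receptors, had a log2 ratio of 0.31 (0.22 to 0.41), and *Tnfrsf21* the highest of the list at 0.70 (0.42 to 0.99). In stem-like cells the highest was *Cflar*, which encodes an inhibitor of caspase 8, at 0.71 (0.42 to 0.99).

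Among 10 caspases and their regulators 0 were 2-fold higher and 1 was 2-fold lower, against 5.52% and 3.48% of all genes, again too few for a contrast. Their median log2 ratio was 0.14, against 0.16. *Diablo*, which encodes an antagonist of inhibitor of apoptosis proteins, was the highest at 0.59 (0.46 to 0.73). *Birc5*, which encodes survivin and is transcribed in dividing cells, was the lowest at -1.28 (-1.38 to -1.18), next to the proliferation markers at 4.53 and 1.68 UMIs per 10000, and its relation to them was not tested.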

How the data were processed

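The deposited counts are UMIs per gene and cell without normalization. Per the labels' processing notes the authors used bcl2fastq 2.17.1.14, Cell Ranger 3.1 and Seurat 3.1.4 with mm10. The annotation version is not given in the sources used here. All cells had 269 to 5997 genes and under 15% mitochondrial UMIs, as the filter of the study requires. Sums of UMIs over cells are given per 10000 UMIs of those cells, with exact Poisson intervals. Log2 ratios have exact conditional binomial intervals, shares Clopper-Pearson intervals, and differences of ratios square-and-add intervals. A count of 0 stood at 3 UMIs over the class. Each library was clustered with Seurat 5.3.0 (R 4.3.3), with 2000 variable genes, 20 principal components, a resolution of 0.9 and regression of depth and mitochondrial share. A marker counted with at least 10 UMIs and 1.5 times the mean level of the libraries. Other steps ran in Python 3.11.15 (pandas 2.3.3, scipy 1.17.1, numpy 2.4.6). Scrublet (scanpy 1.11.5) marked 10 control cells (0.390%) and 0 cells labelled Taf4IEC, too few to show that it worked, and they were kept. The interval step was tested on simulated counts. Thinning was tried on real cells of the library labelled Taf4IEC, where the depths it left were listed. The members, lists, named genes and naming rule were chosen with earlier results of these data known. Named were the members, *Taf4*, 12 fixed pathway genes, the highest and lowest gene of each list and the 3 genes most like each member, of which some are given, and 1 fixed gene is not reported here. *Gdf15*, *Ly6d*, *Areg*, *Cldn2*, *Anxa1*, *Myc*, *Ccnd1*, *Ccnb1*, *Cdc20*, *Vim*, *Ptprc*, *Col3a1*, *Acta2*, *Selenom*, *Rpl36*, *Malat1* and Gm42418 were named after their values were seen.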

Additional observations from a re-analysis of the deposited data

Results flagged for a closer look

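*Pmaip1* was flagged because its direction differed between cell classes within the same contrast. Its log2 ratio of the library labelled Taf4IEC over the control was -0.78 in enterocyte-like cells and 0.85 in stem-like cells, with intervals on opposite sides of 0. In enteroendocrine-like cells it was -1.54, from 15 and 5 UMIs, also against 0.85 in stem-like cells. With 1 library per group neither difference was tested between conditions, and the intervals of the differences (1.17 to 2.10 and 0.84 to 4.23 on the log2 scale) cover counting error only.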

How the results depend on the processing

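Each of the 9 genes had a log2 ratio above 0 in all 10 alternatives over all cells and in all 12 in stem-like cells. In the main setting 6534 of all 10002 genes were above 0 over all cells, and 6842 of 9999 in stem-like cells. The median log2 ratio of the 9 genes over all cells was 1.16. It moved to 1.43 with cells thinned to 500 UMIs, 1.49 in cells under 2000 UMIs and 1.52 with every cell weighing the same. The median of all genes rose as well in cells under 2000 UMIs, to 0.33 from 0.16 over all cells. In stem-like cells, the median of 1.64 moved to 1.30 with 10 principal components, 1.28 with both libraries clustered together and 1.29 with cells thinned to 2000 UMIs. The first 2 of these settings left 107 and 79 stem-like cells labelled Taf4IEC, and markers at 2 times the mean level left 71. The cause of these moves was not tested. The count of the 9 genes at least 2-fold higher ranged from 4 to 7 over all cells and from 6 to 9 in stem-like cells. In cells under 2000 UMIs it was 6, while 1791 of all 9993 genes tested there were at least 2-fold higher. The count of all genes is not given here for every setting. *Bax* and *Ei24*, just under 2-fold over all cells, passed it in 4 of 10 alternatives each. The share of all genes at least 2-fold higher, 5.52%, rose to 8.31% with a minimum of 50 UMIs and to 16.0% with none, as genes of fewer UMIs entered. Relative to the median of all genes, 4 members stayed at least 2-fold higher (median 1.00). No paired analysis was possible because each group has 1 library, and for the same reason no replicate could be left out. At this depth, *Fas* and *Tnfrsf10b* in enteroendocrine-like cells (3 to 6 UMIs a library) allow no direction.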
